A study of Mus musculus with 8 samples.

Results

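The 4 control libraries of germinal-center-like B cells grown in culture (iGBs) are described here on their own, across all genes of the deposited gene table. They were chosen by the CTRL label, which 4 of the 8 samples in the series carry, and are named below by that label and its number. Where 4 values of a gene follow each other, they are those of CTRL-10650, then CTRL-10370, then CTRL-10596 and last CTRL-10597. The label gives the mice as C57BL6/J, Prmt5 +/+ and Cgamma1-cre, so these controls carry the Cre recombinase, expressed from the heavy chain gamma 1 locus once a B cell is activated, and an intact Prmt5. Each library came from a separate mouse, and the ages of the mice are not given in the labels. Splenic B cells freed of CD43+ cells were plated on irradiated 40LB cells, a fibroblast line made to express CD40 ligand and BAFF, with IL-4 at 1 ng/mL, and RNA was taken at day 4 after the B cells had been separated from the feeder cells by elutriation. The samples came from 2 experiments with 2 samples of each genotype in each, and the labels do not say which control libraries shared an experiment, so values within an experiment could not be given.

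Germinal centers are the sites in lymphoid follicles where activated B cells divide quickly, mutate and switch their antibody genes, and are selected by follicular helper T cells. CD40 ligand and IL-4 stand in for T cell help in such cultures and BAFF supports B cell survival. IL-4 directs class switching in mouse B cells toward IgG1 and IgE.

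Ribosomal RNA had been depleted from total RNA, so non-coding and non-polyadenylated transcripts were measured with the messenger RNAs. The libraries held between 36731721 and 50366174 reads assigned to genes. Levels are given as normalized counts, which are reads divided by the size factor of the library, and, where genes are compared with each other, as length-scaled levels, which are normalized counts per kilobase of exons scaled to 1000000 in each library. A gene was taken as detected when it had at least 10 normalized counts in each of the 4 libraries. By this rule 15203 of 39017 genes were detected, 11905 of them among the 21303 protein-coding genes, and 14524 genes were at 0 in all 4 libraries. The median detected gene had 859 normalized counts and a length-scaled level of 10.3. With 1 group of 4 libraries no test between conditions was made. Levels of 2 genes are said to differ only where their 4 values do not overlap, and errors are SD over n = 4 libraries. In bulk RNA, fewer cells of a type and less RNA per cell cannot be told apart.

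All 4 genes used here as markers of these cells were present, at levels that spanned a wide range. Ighm, the heavy chain of IgM, had 90874, 113888, 82035 and 92701 normalized counts and ranked 16 among all genes. Cd79a, the signaling subunit of the B cell receptor, had 14257, 14069, 13565 and 12214 normalized counts. Pax5, the factor that fixes B cell identity, had 5614, 5016, 5987 and 5877 normalized counts. None of these 3 genes set one library far from the others. Bcl6, the repressor that germinal center B cells depend on, had 958, 816, 1349 and 1250 normalized counts, with CTRL-10650 and CTRL-10370 below CTRL-10596 and CTRL-10597. Its mean of 1093 ± 249 was at the 55th percentile of detected genes, against the 88.3rd for Pax5, the 96.4th for Cd79a and the 99.9th for Ighm. The B-lineage markers thus stood at high levels, and Bcl6 stood near the middle of the detected genes by normalized count. Per length, Bcl6 at 6.09 ± 1.71 lay below the median detected gene at 10.3.

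**Figure D1:**
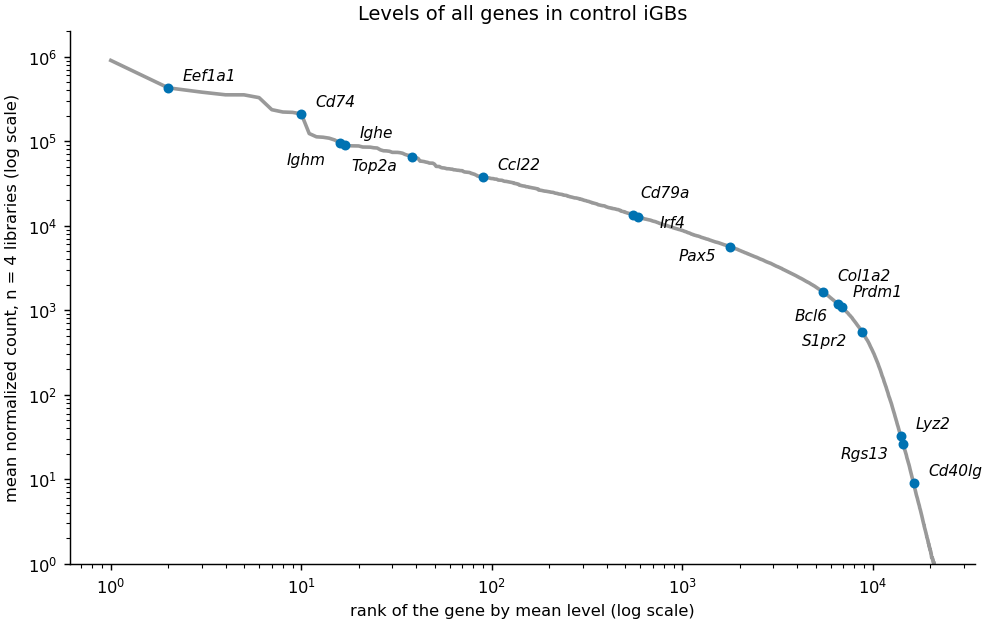
Mean normalized count of each gene (n = 4 control libraries, log scale) against its rank (log scale), with named genes as points. Ighm, at rank 16, lies far up the curve, Bcl6 lies at rank 6852 beside Prdm1, and Lyz2, a myeloid gene, and Cd40lg, the ligand of the feeder cells, lie at its foot.

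All 20 genes of the B-lineage list were detected, 18 of them with means of at least 1000 normalized counts. Their median stood at the 95.4th percentile of detected genes, and together they took 1.39% ± 0.0627 of all normalized counts. Cd74, the invariant chain of MHC class II, was the most abundant, with 203266, 211029, 227209 and 199433 normalized counts. Pou2af1, the coactivator OCA-B needed for germinal centers, followed among the non-immunoglobulin genes with 68399 ± 1609 normalized counts. On the length scale the receptor subunit gene Cd79b was at 731 ± 45.3 and its partner Cd79a at 342 ± 10.3, with no overlap between their values. Cr2, the complement receptor CD21, was the lowest of the list at 354 ± 68.9 normalized counts. Fcer2a, the low-affinity IgE receptor CD23, which IL-4 is known to induce, had 33107 ± 2275 normalized counts.

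The 15 germinal center genes were all detected, at levels that spanned a wide range. The IL-21 receptor gene Il21r (13592 ± 997 normalized counts) and the death receptor gene Fas (5229 ± 179) were among the more abundant members. Mef2b, an activator of Bcl6 (2249 ± 326), stood at the median of the list. S1pr2, the receptor that confines B cells to the germinal center, had only 531, 481, 701 and 523 normalized counts. Gcsam had 438 ± 95.2, Nuggc 76.7 ± 26.2 and Efnb1 161 ± 21.0 normalized counts. Rgs13, a regulator of chemokine receptor signaling, was the scarcest, with 21.5, 55.3, 12.5 and 14.2 normalized counts and its highest value in CTRL-10370. The germinal center list held 0.139% ± 0.00588 of normalized counts, and CTRL-10596 was the highest library for 9 of its 15 genes, against 22.6% of all detected genes.

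Genes of the light zone, where selection takes place, and of the dark zone, where cells divide, were both present. Of the light zone list 12 of 12 genes were detected, led by Cd83 with 24067, 25296, 27010 and 25016 normalized counts. The costimulatory gene Cd86 had 1794 ± 166 normalized counts, Myc, the transcription factor switched on in selected cells, 2742 ± 345, and Egr3, a factor induced by receptor signaling, 57.1 ± 12.9. Of the dark zone list 11 of 12 genes were detected, and the exception was Mme, the surface peptidase CD10, which was at 0 in 3 libraries and at 3.55 normalized counts in CTRL-10597. Cxcr4, the receptor that holds cells in the dark zone, had 3056, 3821, 2951 and 3018 normalized counts, and Foxo1 had 1918 ± 230. Per length, Cd83 at 364 ± 33.9 lay above Cxcr4 at 65.3 ± 5.96, which lay above Cd86 at 18 ± 0.854, with no overlap.

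Among 33 transcription factors of the B lineage 32 were detected, and Mycn was not. Pou2af1 was the highest, followed in normalized counts by Mef2c at 44753 ± 2547, Xbp1 at 24936 ± 4053 and Ikzf1 at 23530 ± 617. Irf4, which in low amounts allows and in high amounts ends the germinal center program, had 13738, 11263, 12724 and 13465 normalized counts. Its length-scaled level of 96.6 ± 12.2 was far above that of Pax5 at 23.5 ± 3.12, which was above that of Prdm1 at 7.89 ± 1.42. The Bcl6 level of 6.09 ± 1.71 overlapped that of Prdm1, the repressor that drives plasma cell formation, although the ratio of Bcl6 to Prdm1 was below 1 in each library, at 0.619, 0.719, 0.834 and 0.890. The ratio of Bcl6 to Irf4 was 0.0624 ± 0.0126. Of 16 factors of other lineages only Tcf7 (475 ± 114 normalized counts) and Prrx1 (69.1 ± 11) were detected, and the T cell factor Gata3, the myeloid factor Cebpa and the erythroid factor Gata1 had at most 5.38, 2.37 and 1.18 normalized counts.

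The plasma cell list stood high by its median, but its members differed widely. Of 15 plasma cell genes listed 14 were in the gene table and 13 were detected, with a median at the 93.3rd percentile of detected genes and 0.283% ± 0.0408 of normalized counts. Xbp1, the factor of the unfolded protein response, had 26237, 19757, 29449 and 24299 normalized counts. Edem1, which clears misfolded glycoproteins, had 26466, 18732, 27273 and 22146. Igj, the joining chain of IgM and IgA, had 11987, 8785, 14040 and 8881. In each of these genes CTRL-10650 and CTRL-10596 were above CTRL-10370, and CTRL-10370 was the lowest library for 11 of the 13 genes, against 25.8% of all detected genes. The surface marker Sdc1 (CD138) had 778, 432, 806 and 568 normalized counts. The plasma cell survival receptor gene Tnfrsf17 (BCMA) was not detected, with at most 14.3. Of the endoplasmic reticulum chaperones, Hsp90b1 had 100660, 72831, 103906 and 75165 normalized counts, again with CTRL-10650 and CTRL-10596 above the other libraries, while the heat-inducible Hspa1a and Hspa1b had 82.9 ± 30.6 and 96.0 ± 28.5.

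The lists for memory and for resting follicular B cells gave mixed levels. The IL-9 receptor gene Il9r stood at 17218 ± 2541 normalized counts, whereas the memory-associated genes Cd80, Bach2, Ccr6 and Cd38 had 1759 ± 136, 851 ± 139, 750 ± 263 and 249 ± 52.0, and Nt5e (CD73) had 13.1 ± 4.49 and was not detected. Among follicular genes Cxcr5, Gpr183 and Ccr7, receptors that guide B cells within and toward lymphoid tissue, had 9225 ± 405, 8516 ± 348 and 4105 ± 789 normalized counts. S1pr1, which serves exit from lymph nodes, had 521 ± 127. Of 8 genes of the pre-B stage and of V(D)J recombination only Il7r and Erg were detected, at 43.2 ± 13.6 and 41.0 ± 20.9 normalized counts, while Rag1 had at most 7.17, Rag2 at most 4.74 and Dntt at most 7.13.

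Immunoglobulin genes took 1.09%, 0.875%, 1.11% and 0.925% of normalized counts. Ighe, the heavy chain of IgE, had 113816, 54546, 115168 and 76917 normalized counts, the widest spread of the 3 abundant heavy chain genes. Ighm varied the other way, with its highest value in CTRL-10370, where Ighe was lowest. Ighg1, the heavy chain of IgG1, was steady at 38968, 35521, 40536 and 39072. Of 9 heavy chain constant genes listed 7 were in the gene table, and Ighd, the heavy chain of IgD, was not among them. As length-scaled shares of these 7 genes, Ighe took 53.1%, 31.7%, 55% and 42.9%, Ighm 35.6%, 55.5%, 32.9% and 43.5%, and Ighg1 11.1%, 12.6%, 11.8% and 13.3%. Ighe therefore exceeded Ighm by 1.49 times in CTRL-10650 and 1.67 times in CTRL-10596, was below it at 0.570 times in CTRL-10370 and was at 0.987 times in CTRL-10597. The values of Ighe and Ighm overlapped, and both lay above all values of Ighg1. Igha, Ighg3, Ighg2b and Ighg2c each took at most 0.123% in every library, and all 4 were detected, at 280 ± 96.0, 252 ± 45.3, 105 ± 19.5 and 38.3 ± 22.3 normalized counts. Counts per gene do not separate germline transcripts, which precede switching, from those of switched cells, nor the membrane form from the secreted form, so these shares are shares of RNA and not of cells.

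Light chain RNA was mostly kappa. Igkc had 86456, 66585, 86113 and 68069 normalized counts and exceeded Iglc2 per length by 15.4, 12.5, 14.8 and 15.2 times. Of 5 light chain constant genes listed only these 2 were in the gene table, so the ratio rests on 1 lambda gene. Variable genes gave lambda a larger part, with normalized counts of 63331 ± 9563 summed over Igkv and 11074 ± 1891 over Iglv. Among variable genes 90 of 103 Ighv genes, 91 of 96 Igkv genes and all 3 Iglv genes were detected. The 3 most abundant Ighv genes, Ighv9-3, Ighv1-26 and Ighv1-82, together held between 12.8% and 13.2% of Ighv normalized counts, and Igkv10-96, Igkv1-117 and Igkv1-135 held between 12.6% and 13.5% of Igkv, so no small set of variable genes dominated any of the libraries. Near-identical variable genes share reads that unique mapping discards, which leaves the level of single members uncertain. In both families CTRL-10650 and CTRL-10596 had the higher sums.

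**Figure D2:**
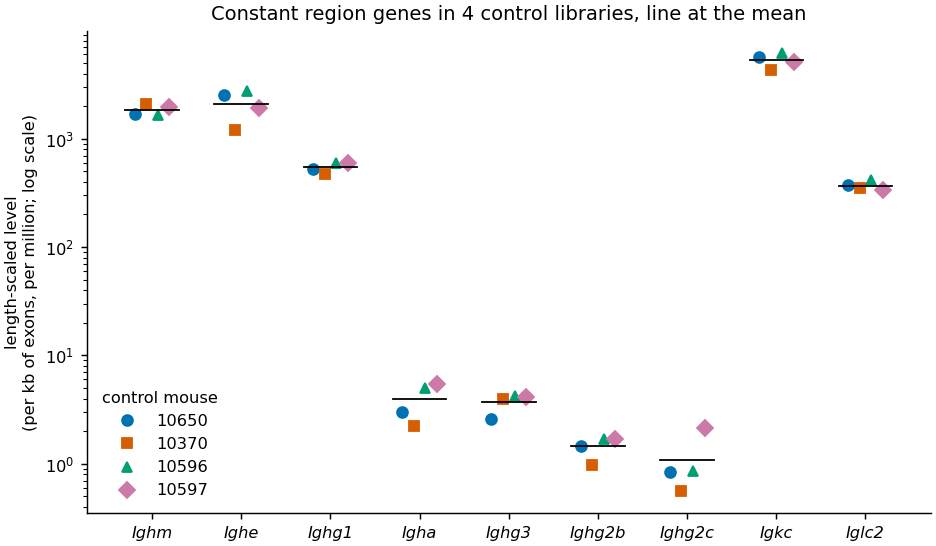
Length-scaled level (log scale) of heavy and light chain constant genes in each control library, with a line at the mean of 4. Ighe and Ighm lie together, with Ighe lowest and Ighm highest in CTRL-10370, Ighg1 lies below both, and Igha, Ighg3, Ighg2b and Ighg2c lie far below.

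All 18 genes of the switching and mutation list were detected. The mismatch repair gene Msh6 had 11132 ± 232 normalized counts. The uracil glycosylase gene Ung had 1881 ± 50.9 and Polh, the polymerase that mutates A and T bases, 3440 ± 70.6. Of the end-joining genes, Trp53bp1 had 3328 ± 167 and Rif1 9575 ± 869, whereas Xrcc4 and Lig4, which act in the same ligase complex, had 617 ± 30.2 and 234 ± 37.8. Apex1 at 6038 ± 253 normalized counts was above Apex2 at 465 ± 29.9, as was its length-scaled level, at 157 against 1.97.

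Receptors and adaptors for the signals supplied by the culture were detected for 19 of 20 CD40 and BAFF pathway genes, the exception being Tnfrsf17. Cd40 had 4045, 5511, 4988 and 5216 normalized counts, lowest in CTRL-10650. The BAFF receptor gene Tnfrsf13c had 6383 ± 415 and Tnfrsf13b, which encodes TACI, 6240 ± 468. The NF-kappaB gene Nfkb1 was the highest of the list in normalized counts, at 30294 ± 3078. Nfkb2, at 16143 ± 1474, and Birc2, at 15935 ± 1545, came next, and their values overlapped. Per length Nfkb1 was at 0.715 ± 0.0638 of Nfkb2, and at 93.1 ± 14.2 it also lay below Nfkbia, at 129 ± 8.95. Per length Rela, at 27.8 ± 2.3, was above Rel, at 12.5 ± 1.53.

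Of 16 genes of the IL-4 pathway 15 were detected. Ccl22, a chemokine induced by IL-4 and CD40, had 55776, 31329, 27513 and 34437 normalized counts and stood highest in CTRL-10650. The receptor gene Il4ra had 26223, 24251, 27526 and 32709, and Stat6, the factor that carries the signal, 7167 ± 439. Il4 itself had at most 5.38 and was not detected. The feedback inhibitor genes Socs1, Cish and Socs3 had 1199 ± 163, 498 ± 175 and 269 ± 55, with Cish at 716, 324, 394 and 557 and highest, like Ccl22, in CTRL-10650. All 11 MHC class II genes were detected with a median at the 98.5th percentile of detected genes. H2-Eb1 and H2-Ab1, at length-scaled levels of 1237 ± 52.3 and 1199 ± 60.1, overlapped and lay above H2-Aa, at 825 ± 29.5, and their activator Ciita had 23127 ± 1876 normalized counts. All 23 genes of the B cell receptor pathway were detected.

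Every gene of the cell cycle lists was detected, and each of the 24 S phase and 25 G2 and M phase genes had a mean of at least 1000 normalized counts. Top2a, the topoisomerase that untangles chromosomes, had 61312, 73278, 61712 and 65026 normalized counts and ranked 38 among all genes. Mki67, the proliferation marker, had 47366, 37575, 43026 and 54420. For Mki67 library CTRL-10370 was the lowest and for Top2a it was the highest. Mcm6, a subunit of the replicative helicase, had 28581, 29968, 25245 and 27616, and Rrm1, a subunit of ribonucleotide reductase, 24537 ± 1193. The lowest members were Orc1, of the origin recognition complex, at 1233 ± 38.2, and Ttk, a spindle checkpoint kinase, at 1662 ± 113. The S phase list held 0.529% ± 0.0204 and the G2 and M phase list 0.617% ± 0.0266 of normalized counts. Library CTRL-10370 was the highest for 15 of 24 S phase and 18 of 25 G2 and M phase genes, against 28.9% of all detected genes, but its summed shares, 0.548% and 0.630%, stood above the means by less than the SD between libraries.

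The promoters of the G2 and M phase genes are shown because every gene of that list was abundant. RefSeq promoter windows (GRCm38.p6), all of 1 length around an annotated start, matched 21 of the 25 genes. The CHR element TTTGAA, known as a site of the complex that times mitotic genes, was searched on both strands and was found in 16 of the 21, against 17.9% of all 32851 promoters. At least 2 copies of CCAAT, the core of NF-Y sites, were found on either strand in 15 of the 21, against 11.7% of all promoters. Both features were found in 13 of the 21 genes, against 2.09% of all promoters. In the S phase list, of which 21 genes matched, 3 held TTTGAA, 10 held at least 2 copies of CCAAT and 1 held both. As spelled, a match of one motif can share its end base with a match of the other. A match is a description of letters and was not tied to binding. The windows of Top2a (chr11:99024140-99024439), Mki67 (chr7:135716330-135716629) and the motility receptor gene Hmmr (chr11:40733388-40733687), all on the minus strand, are printed 5′ to 3′ with both motifs, on either strand, in capitals.
Top2a: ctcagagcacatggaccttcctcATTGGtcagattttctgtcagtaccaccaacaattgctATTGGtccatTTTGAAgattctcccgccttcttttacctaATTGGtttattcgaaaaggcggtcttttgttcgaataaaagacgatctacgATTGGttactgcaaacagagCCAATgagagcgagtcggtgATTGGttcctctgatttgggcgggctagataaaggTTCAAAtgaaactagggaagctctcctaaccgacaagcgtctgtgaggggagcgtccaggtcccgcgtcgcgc
Mki67: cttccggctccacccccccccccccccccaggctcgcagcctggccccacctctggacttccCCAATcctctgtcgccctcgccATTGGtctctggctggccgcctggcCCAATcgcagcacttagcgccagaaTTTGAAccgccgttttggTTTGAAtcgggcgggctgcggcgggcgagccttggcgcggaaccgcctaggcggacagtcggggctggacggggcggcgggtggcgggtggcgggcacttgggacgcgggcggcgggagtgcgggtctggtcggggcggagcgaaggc
Hmmr: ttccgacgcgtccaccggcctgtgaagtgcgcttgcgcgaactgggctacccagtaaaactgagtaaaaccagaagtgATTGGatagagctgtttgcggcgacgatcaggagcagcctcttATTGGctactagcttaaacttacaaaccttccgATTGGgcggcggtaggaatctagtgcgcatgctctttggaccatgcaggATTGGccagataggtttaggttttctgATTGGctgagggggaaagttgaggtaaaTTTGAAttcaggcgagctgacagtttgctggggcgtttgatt

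The kinases and cyclins that admit cells to S phase were unequal. Cdk4 had 11755, 11648, 11252 and 11129 normalized counts, a narrow range, and per length was 22.2 ± 3.66 times as high as Cdk6. Ccnd2 had 6048, 4331, 3745 and 5704 normalized counts and Ccnd3 had 4054, 3523, 3418 and 3489, and their length-scaled levels of 19.5 ± 4.54 and 15.2 ± 1.04 overlapped. Ccnd1, at 3.23 ± 0.951 per length, lay below both. Ccnd2 was lower in CTRL-10370 and CTRL-10596 than in CTRL-10650 and CTRL-10597. Of the inhibitors, Cdkn1b (p27) had 2429 ± 115 normalized counts, Cdkn2c (p18) 1184 ± 106, Cdkn1a (p21) 595 ± 109, Cdkn2a 272 ± 54.1 and Cdkn1c (p57) 58.3 ± 13.6. The Myb family was led by Myb, at 4592 ± 576, and Mybl2, at 4159 ± 294, while Mybl1, typical of germinal centers, had 520, 670, 1012 and 856. Among E2F genes the repressor-type E2f4 had 3477 ± 94.8 normalized counts. The activators E2f2, E2f3 and E2f1 had 3038 ± 493, 1724 ± 227 and 768 ± 102, and the values of E2f2 and E2f4 overlapped.

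Survival genes of the Bcl2 family were led by Mcl1, on which germinal center B cells depend. It had 22359, 25096, 25081 and 22857 normalized counts, and its length-scaled level of 258 ± 20.6 was 24.6 ± 1.70 times that of Bcl2. Bcl2a1b had 8723 ± 1001 normalized counts, and its near-identical copies Bcl2a1d, at 6099 ± 754, and Bcl2a1a, at 1060 ± 146, make its own level uncertain. Per length Bcl2l1 (Bcl-xL), at 15.4 ± 2.35, was above Bcl2, at 10.5 ± 0.819. Of the death-promoting members, Bcl2l11 (Bim) had 3553, 2232, 3708 and 3387 normalized counts, lowest in CTRL-10370, and Pmaip1 (Noxa) and Bbc3 (Puma) had 1435 ± 129 and 844 ± 74.9.

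Metabolic genes were abundant, with 17 of 17 glycolysis, 12 of 12 one-carbon and 15 of 15 cholesterol synthesis genes detected. Pkm, Aldoa and Ldha, which encode pyruvate kinase, aldolase and lactate dehydrogenase subunits, had 108633 ± 14566, 67861 ± 10843 and 62493 ± 9865 normalized counts, and Ldhb, the other main subunit of lactate dehydrogenase, had 24.5 ± 4.13. Tpi1 had 34774, 47375, 27592 and 35172, highest in CTRL-10370 and lowest in CTRL-10596. The glycolysis list as a whole took 0.835%, 0.969%, 0.716% and 0.818% of normalized counts, with CTRL-10370 highest for 12 of 17 genes and CTRL-10596 lowest for 10 of 17, against 28.9% and 22.1% of all detected genes. In the cholesterol list CTRL-10370 was highest for 11 of 15 genes and CTRL-10596 lowest for 11 of 15, against the same 28.9% and 22.1%. The serine synthesis enzyme Phgdh had 11589 ± 1048. Per length Hk2 at 41.5 ± 6.5 was above Hk1 at 13 ± 1.09.

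A pair of genes often used as references were low. Gapdh had 1317, 803, 1227 and 1491 normalized counts and Ppia 671, 781, 886 and 1125, against 380683 ± 14035 for Actb. Of the 50-base stretches of the Gapdh transcript 27.2% also occur in transcripts of 213 other genes, and for Ppia the figures were 14.8% and 75 genes. Sharing was not limited to low genes. Actb shared 14.2% with 18 genes, the abundant Pkm 34.4% with 8 and the scarce Ldhb 27.0% with 1. How far sharing lowered any of these levels was not tested. Reads that fit several places are dropped by unique mapping, so the levels of these genes are uncertain. The same holds for Eno1 and Pgk1, with 72.2% and 68.0% of such stretches shared, and for Eef1a1, the elongation factor at rank 2, with 59.2%. B2m and Hprt shared none and had 28703 ± 2699 and 9042 ± 937 normalized counts.

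The single most abundant RNA was a short non-coding one. The signal recognition particle RNA Metazoa_SRP on chromosome 12 (ENSMUSG00000099021) had 1038910, 956978, 844614 and 774716 normalized counts, which was 2.04% ± 0.233 of the total. Among the 10 highest genes were also Rn7sk, the RNA that restrains transcription elongation, at 353753 ± 48928, and Rpph1, the RNA of ribonuclease P, at 327773 ± 58310. The 10 highest genes took 9.05%, 8.55%, 7.91% and 7.35%, and the 1000 highest 51.9% ± 0.866. Per length the 25 highest genes were 6 miRNA, 5 miscellaneous RNA, 2 ribozyme, 2 lincRNA, 4 processed pseudogene, 2 immunoglobulin and only 4 protein-coding genes. Of these 25 genes 12 were shorter than 300 bases, and 12 lay inside or across another annotated gene. Reads of Mir5107 cannot be told apart from those of Cd74 around it, nor those of Gm26377 from those of Eef1a1, while the genes that overlap Rpph1, mt-Co1 and Gm10736 had at most 1.78 normalized counts on average. Among protein-coding and immunoglobulin genes alone the 5 highest per length were Eef1a1 at 6319 ± 198, the mitochondrial mt-Co1 at 5645 ± 1022, Igkc at 5330 ± 798, Actb at 5245 ± 288 and Cd74 at 4626 ± 402. By annotated class, protein-coding genes held 83.8% ± 1.04, processed pseudogenes 6.28% ± 0.363, miscellaneous RNAs 3.19% ± 0.358 and lincRNAs 1.73% ± 0.180 of normalized counts. Histone genes held 2.15% ± 0.215, ribosomal protein genes 3.97% ± 0.266 and mitochondrial genes 0.809% ± 0.140, groups that overlap the protein-coding class.

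Markers of other blood cells were mostly at or near 0. Of 14 T cell genes only Thy1, Lck, Cd5 and Trac were detected. Thy1 had 2118, 1306, 1565 and 2093 normalized counts, Lck 730 ± 50.6, Cd5 187 ± 40.8 and Trac, a T cell receptor constant gene, 20.8 ± 2.64. The receptor subunits Cd3e, Cd3d and Cd3g, which define T cells, had 0, at most 3.57 and at most 8.62, and Themis was at 0. Of 13 myeloid genes listed 12 were in the gene table and only Mrc1 was detected, at 27.3 ± 6.93, and Lyz2 had 23.7, 79.3, 9.86 and 16.6, highest in CTRL-10370. S100a8, S100a9 and Elane were at 0 in all 4 libraries. Of 11 NK, erythroid and platelet genes the cytotoxic gene Prf1 (186 ± 24.6) and Itga2b (70.2 ± 31.9) were detected, while Ncr1, the NK receptor, had at most 5.35.

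**Figure D3:**
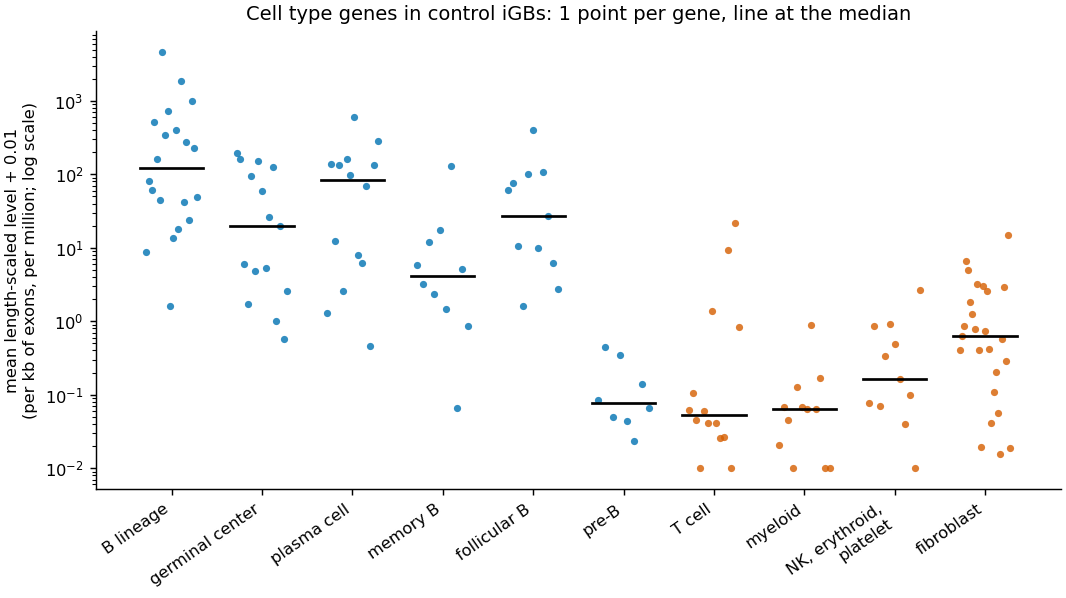
Mean length-scaled level plus 0.01 (n = 4 control libraries, log scale) of each gene of 10 cell type lists, with a line at the list median. The B-lineage, plasma cell, follicular B cell and germinal center genes lie mostly above a level of 1, and the T cell, myeloid and pre-B cell medians lie below 0.1.

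RNAs of genes typical of fibroblasts were detected in all 4 libraries. Of 25 fibroblast and matrix genes 19 were detected, and the list summed to 260, 151, 175 and 203 per 1000000 normalized counts, a mean of 197 ± 46.7. Thbs1 had 3646, 2043, 2031 and 2299 normalized counts and held 28.5% ± 2.59 of the sum. Col1a2 had 2069, 1301, 1588 and 1706, and Col1a1 1453, 732, 1126 and 1410. Library CTRL-10650 was the highest for 13 of the 19 detected genes, against 24.6% of all detected genes. Cxcl12, Slit2 and Enpp2, which the list did not hold and which are named here for their values, were also highest in CTRL-10650, with Cxcl12 at 149, 60.6, 53.8 and 45. Cd40lg, supplied by the feeder cells, had 12.9, 7.13, 8.96 and 7.11, and Tnfsf13b, which encodes BAFF, 32.3, 39.2, 30.5 and 40.3. The counts do not show which cells these RNAs came from, and the part of these RNAs in the high Ccl22 and Cish of CTRL-10650 was not tested.

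Among interferon response genes the signaling factor gene Stat2 had 1923 ± 276 normalized counts. The antiviral genes Mx1, Oas1a and Rsad2 had 269, 536, 438 and 318, then 269, 571, 296 and 288, then 34.5, 110, 58.2 and 66.4 normalized counts. Library CTRL-10370 was the highest for 12 of the 14 genes of the list, against 28.9% of all detected genes, and the interferon-inducible Tgtp1 and Tgtp2 stood apart in it as well, with Tgtp2 at 51.7, 140, 60.0 and 58.1.

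**Figure D4:**
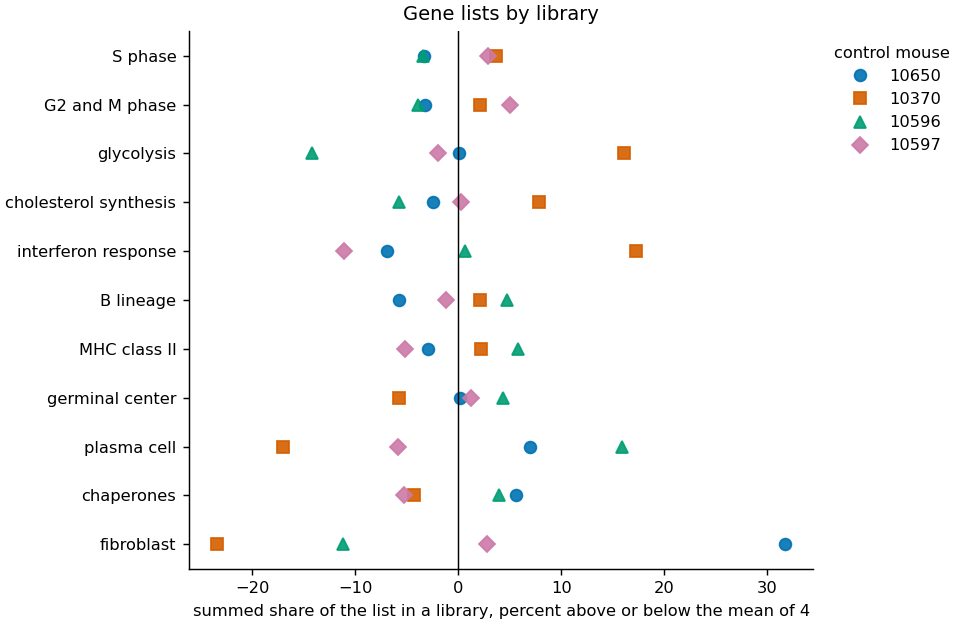
Summed share of each gene list in each control library, as percent above or below the mean of the 4 libraries (x axis). Library CTRL-10370 lies highest for glycolysis, cholesterol synthesis and interferon response genes and lowest for plasma cell and fibroblast genes, CTRL-10596 lies lowest for glycolysis and highest for plasma cell genes, and CTRL-10650 lies highest for fibroblast genes.

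The spread between libraries was small for most genes. It was measured as the biological CV, which is the CV over 4 libraries after the part expected from counting reads was taken off. Over 13244 genes with a mean of at least 50 normalized counts its median was 8.52%. It fell from 15.4% for means of 50 to 200 to 7.06% for means of 5000 to 20000 and was 8.26% for the 304 genes with means of 20000 or more. In 743 genes, or 5.61%, the observed spread was no larger than the part expected from counting, and 49 genes had a biological CV above 0.5. Whether the spread of a single gene exceeded counting error was not tested. Pairs of libraries differed by a root mean square of 0.295 to 0.435 on the log2(normalized count + 1) scale, and all pairs differed by more than counting error, so no library was a copy of another. Among genes above 10000 normalized counts the most variable after the repeat genes below were Gm23935, Ccl22 and Ighe, with biological CVs of 0.927, 0.340 and 0.328, whereas Pou2af1 and Sdha had 0.0232 and 0.0116.

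The 9 most variable genes of all were predicted genes that contain copies of 1 repeat. Gm10800 had 2.15, 7.13, 1935 and 103789 normalized counts. Gm10801 had 0, 3.57, 219 and 10050, Gm21738 had 0, 1.78, 179 and 9865, and Gm10718 had 0, 0, 174 and 7106. In each, CTRL-10597 was highest, CTRL-10596 next, and CTRL-10650 and CTRL-10370 were at or near 0. Together with 9 further genes that share 31-base stretches with each of the others, they held 0.316% of normalized counts in CTRL-10597 and 0.00617% in CTRL-10596. Of these 13 genes, 10 are annotated on chromosome 9 between 3000282 and 3038316, near its start, while Gm10800 and Gm10801 are on chromosome 2 and Gm21738 is on chromosome 14. The transcript of Gm10800, the most abundant of these genes, matched itself best at a shift of 225 bases, with 56.3% of bases identical. Those of Gm21738, Gm10722, Gm10717 and Gm26870 did so at 234 bases. The transcript of Gm10718 (chr9:3023547-3025218) also matched itself best at 234 bases, with 62.6% of bases identical against a median of 30.9% over shifts. Units of 234 bases are known from the mouse major satellite, the repeat of the pericentromeres. The adjoining units below come from the GENCODE vM21 transcript (GRCm38), printed 5′ to 3′ on the transcript strand to show the repeat, and capitals mark the 224 bases that are identical between them.
first unit: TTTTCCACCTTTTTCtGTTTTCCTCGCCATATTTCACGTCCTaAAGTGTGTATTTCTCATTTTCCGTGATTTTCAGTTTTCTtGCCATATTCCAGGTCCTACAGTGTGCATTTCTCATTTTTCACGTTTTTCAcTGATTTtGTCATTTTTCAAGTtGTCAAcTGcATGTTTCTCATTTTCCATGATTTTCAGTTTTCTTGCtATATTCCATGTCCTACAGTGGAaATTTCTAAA
second unit: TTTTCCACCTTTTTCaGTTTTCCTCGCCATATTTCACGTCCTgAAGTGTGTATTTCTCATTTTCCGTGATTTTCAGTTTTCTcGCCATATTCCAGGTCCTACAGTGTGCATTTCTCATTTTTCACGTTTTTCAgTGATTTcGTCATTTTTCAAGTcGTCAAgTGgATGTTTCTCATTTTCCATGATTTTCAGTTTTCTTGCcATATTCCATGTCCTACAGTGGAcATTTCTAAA

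**Figure D5:**
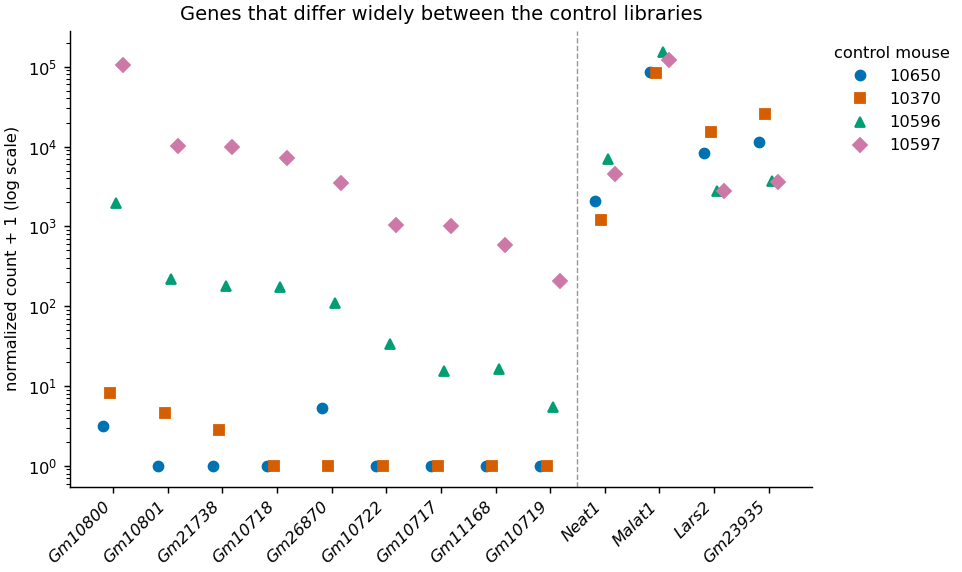
Normalized count plus 1 (log scale) in each control library of the 9 repeat genes with a mean of at least 50 and, right of the dashed line, of 4 other genes. Library CTRL-10597 lies highest and CTRL-10596 next for each repeat gene, while Neat1 lies highest in CTRL-10596 and Lars2 and Gm23935 in CTRL-10370.

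Other RNAs, non-coding ones among them, also separated the libraries. Neat1, the scaffold of nuclear paraspeckles, had 2067, 1187, 6894 and 4549 normalized counts, and Malat1, another nuclear RNA, 87002, 83648, 153218 and 121878, so that both were higher in CTRL-10596 and CTRL-10597 than in CTRL-10650 and CTRL-10370. The host gene of small nucleolar RNAs Gas5 had 9449, 9811, 13604 and 14841, in the same order of pairs. In the other direction the miRNA gene model Gm23935 had 11391, 25311, 3745 and 3589, the protein-coding gene Lars2 8251, 15106, 2785 and 2806, and the mitochondrial ribosomal RNA mt-Rnr1 6978, 8487, 2929 and 4099. The other mitochondrial ribosomal RNA, mt-Rnr2, did not follow these pairs, with 33862, 30409, 20247 and 33111. Scin, which encodes an actin-severing protein, had yet another pattern with 485, 99.9, 555 and 99.5, high in CTRL-10650 and CTRL-10596. Library CTRL-10597 had 1859 genes above 0 that were at 0 in the other libraries, against 406, 445 and 593 in CTRL-10650, CTRL-10370 and CTRL-10596, although it held the fewest reads. Genes that stood at least 2-fold above or below all 3 other libraries were few among the 13244 genes with a mean of at least 50. They numbered 15 in CTRL-10650, 24 in CTRL-10370, 1 in CTRL-10596 and 22 in CTRL-10597. Repeat genes were counted among them, as high in CTRL-10597. Some repeat genes were also counted as low in CTRL-10650 or CTRL-10370, where they had 0 or a few normalized counts. The X inactivation RNA Xist had at most 4.74 normalized counts in each library, while the Y-linked Ddx3y had 3829, 5011, 5066 and 5900.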

How the data were processed

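Total RNA of 4 control iGB cultures was sequenced after ribosomal RNA depletion. According to the study's methods and the labels, reads were trimmed with Trimmomatic 0.32, aligned to mm10 (GRCm38) with STAR 2.3.0e and counted uniquely on exons of Ensembl genes with featureCounts 1.4.4. The authors deposited a normalized signal, reads divided by the DESeq2 1.14.1 size factor. The strand setting is not given in the sources used here, so antisense and overlapping genes are uncertain. Steps in the low values gave back whole reads for 100% of values (tolerance 0.01). The splicing files, which hold comparisons between genotypes, were not used.

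Levels, shares, ranks and spread were computed with Python 3.11.15, pandas 2.3.3 and NumPy 2.4.6 within the control libraries, with exon lengths from GENCODE vM21 for 37693 of 39017 genes. A pseudocount of 1 was used for log2 differences, and edgeR 4.0.16 gave an alternative spread from the recovered reads. The scripts were tested on simulated data. Genes were named by rule: the 25 highest by count and per length, all members of lists of 15 or fewer genes and otherwise the 6 highest and 4 lowest and any detected marker of another cell type, and the 20 most and 10 least variable genes. Not all of these are printed. Other members of longer lists were named for their role after their values were seen. The choice of these libraries and of the 40 gene lists was made with earlier results of these data known. With 4 libraries an exact paired two-sided test cannot go below 0.125, so none was run. The spread over libraries holds differences between mice, cultures and library preparations together.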

Additional observations from a re-analysis of the deposited data

Results flagged for a closer look

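Of 277 values examined, single genes included, 16 had 1 library far from the other 3 by Dixon's ratio, or 5.78%. Of these 16, 6 had CTRL-10597 as the outlying library, 5 CTRL-10650, 4 CTRL-10370 and 1 CTRL-10596. The limit used is passed by chance in about 1 of 20 independent values. The examined genes include some named for their spread between libraries, and the repeat genes share sequence. The share flagged therefore cannot be set against that rate.

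In CTRL-10597 the repeat genes Gm10800, Gm10801, Gm21738 and Gm10718 had 103790, 10050, 9865 and 7106 normalized counts, against at most 1935, 219, 179 and 174 in the other libraries. H2-Aa, a chain of MHC class II, was low in CTRL-10597 at 77144, against 86487 to 88405. The length-scaled share of Ighg2c among heavy chain constant genes was 0.0474% in CTRL-10597, against 0.0148% to 0.0174%, and this gene has few reads.

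In CTRL-10650 the matrix gene Thbs1 had 3646 normalized counts against 2031 to 2299, the guidance ligand gene Slit2 had 156 against 49.9 to 62.7 and the chemokine gene Cxcl12 had 149 against 45 to 60.6. Ccnd3, a D cyclin, had 4054 against 3418 to 3523, and the transcription factor gene Tcf7 had 645 against 399 to 434. In CTRL-10370 the interferon response genes Oas1a and Tgtp2 had 571 and 140 normalized counts, against 269 to 296 and 51.7 to 60.0. Cxcr4 had 3821 against 2951 to 3056, and the summed share of the myeloid list was 0.000383% against 0.000171% to 0.000179%. In CTRL-10596 the germinal center gene Nuggc had 116 normalized counts, against 59.2 to 68.7.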

How the results depend on the processing

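Of 92 values recomputed under other settings, 77 stayed within the spread between libraries or, for counts of genes, close to the count reported. For a share of a fixed gene set, leaving out 1 of 4 libraries cannot move the mean by as much as the SD between libraries. Such settings could only stay, so the 77 do not measure how stable the shares are. With length-scaled values in place of normalized counts, the 10 highest genes took 24.1% in place of 8.21%, protein-coding genes 42.4% in place of 83.8%, immunoglobulin genes 3.87% in place of 0.999% and mitochondrial genes 1.12% in place of 0.809%. On that scale the B-lineage, germinal center and plasma cell lists took 1.05%, 0.0855% and 0.165% in place of 1.39%, 0.139% and 0.283%, and Ighg1 took 12.2% of heavy chain constant genes in place of 17.2%, because short genes gain weight per length. The fibroblast list without Thbs1 summed to 141 per 1000000 in place of 197. The median biological CV of 8.52% was 9.20% with a minimum mean of 10, 7.95% with 200, and 13.4% as the common value of edgeR, which is 1 value fitted over all genes. Leaving out 1 library gave 7.33% to 8.45%, lowest without CTRL-10370, and pairwise log2 differences of 0.317 to 0.429 around the median of 0.333, highest without CTRL-10596. Leaving the 13 repeat genes out, an alternative chosen after seeing the data, gave 0.296. Genes detected with other minimum settings numbered 12752 to 18003. No paired analysis was possible because the libraries form 1 group and the numbers in their labels name mice. The depth leaves genes of a few reads uncertain. In 5.61% of genes the observed spread was no larger than the part expected from counting, and no gene was tested for a spread beyond it.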

Other observations

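Costimulatory surface genes were all detected, 12 of 12, from Cd83 and Icam1 (5477 ± 375 normalized counts, SD, n = 4) down to Cd70, at 131 ± 25.4. The immediate early genes were also detected, 14 of 14, led by Jund at 15652 ± 486 and Junb at 7923 ± 588, while Fos had 999 ± 198, Nr4a1, a gene induced by receptor signaling, 77.9 ± 12 and Fosl1 38.9 ± 8.56.

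Among translation factors Pabpc1, the poly(A) binding protein, had 24229, 14420, 13416 and 16886 normalized counts, in the order of libraries used above, the widest relative spread of its 13-gene list, and Polr2a, the large subunit of RNA polymerase II, had 3522, 1472, 1731 and 1926. Both were highest in CTRL-10650. The matrix protease gene Mmp12, which macrophages make, had 35.5, 171, 12.5 and 7.11, highest in CTRL-10370 as was Lyz2. These genes were chosen after their values were seen.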
